A study of Mus musculus with 21 samples.

Results

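Glutathione and the NRF2 antioxidant program were examined in epidermal keratinocytes of mice that had expressed p16 for 6 months. The genes were 50 named ones, chosen by function and matched by symbol to the 22050 entries of the expression table: 23 glutathione transferases, 5 genes of glutathione synthesis and recycling, 4 glutathione peroxidases, NRF2 and its inhibitor KEAP1, and 16 other antioxidant genes of the thioredoxin, peroxiredoxin, superoxide dismutase, metallothionein, quinone and heme systems. All 50 had a row. 48 of them reached a mean normalized count of at least 1 and were tested among 12782 genes; Gstm3 and Gstp2 did not.

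Both groups carried K5-rtTA, in which the keratin 5 promoter drives the doxycycline-dependent activator in basal epidermis, together with tet-GFP, on a mixed FVB, C57Bl and 129sv strain background. The p16 group (K5-rtTA/tet-GFP/tet-p16, n = 4) carried in addition a doxycycline-activated human p16 gene, which the control group (K5-rtTA/tet-GFP, n = 4) lacked. All mice received doxycycline from the age of 3 weeks, controls included, and GFP+ cells of the dorsal skin were sorted after CD140a+, CD45+ and CD31+ cells had been gated out. Each sample held about 80000 cells pooled from 3 mice, so differences between single mice were not measured, and GFP marks cells with an active transgene activator rather than p16 itself. The comparison asks how this gene program stood in cells under prolonged p16 expression.

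Glutathione is the main small thiol of the cell. It is made in 2 steps, by glutamate-cysteine ligase (catalytic subunit Gclc, modifier Gclm) and glutathione synthetase (Gss), from cysteine that enters partly through the cystine transporter Slc7a11. Peroxidases spend it on peroxides, transferases attach it to reactive compounds, and the reductase Gsr regenerates it. The transcription factor NRF2 (Nfe2l2) is held down by KEAP1 in resting cells, escapes it under oxidative or electrophilic stress, and with small MAF proteins binds antioxidant response elements near many of these genes. In skin the program is known for protection against ultraviolet light and chemical carcinogens.

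The core of that element, TGACNNNGC (GCNNNGTCA on the other strand), gives a view of the sequence these genes carry beside their starts. It was searched in the 250 bases before each RefSeq start (GRCm38.p6), which were at hand for 43 of the 50 genes. They were missing for Gclc, Hmox1, Gsr, Gsta4, Gstt2, Prdx6 and Sod3, and elements further from a start were not searched. 10 of the 43 held the core (23.3%), against 13.9% of the 9717 tested genes with a promoter and 11.5% of all 27025 promoters. The matches of 8 genes whose values are described below, all but Nfe2l2 with an unadjusted p under 0.05, are shown 5′ to 3′ in the direction of the gene, with the 9 matching letters in capitals and 10 bases on each side.
Mgst1, chr6:138140461-138140489, gene on the + strand: gcggggcttgGCACGGTCAggaggcgggg
Gsta3, chr1:21240454-21240482, + strand: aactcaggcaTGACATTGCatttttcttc
Sod1, chr16:90220696-90220724, + strand: gccaaggtggGCGTGGTCAgactcaggcc
Gclm, chr3:122245413-122245441, + strand: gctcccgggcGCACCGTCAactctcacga
Prdx1, chr4:116685456-116685484, + strand: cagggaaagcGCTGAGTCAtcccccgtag
Gstm5, chr3:107895802-107895830, + strand: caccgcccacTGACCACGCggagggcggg
Txnrd1, chr10:82859104-82859132, + strand: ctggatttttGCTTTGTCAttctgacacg
Nfe2l2, chr2:75704885-75704913, gene on the − strand: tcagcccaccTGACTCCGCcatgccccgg

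Gstm7 and Mt2 held the remaining matches. The letters of the Prdx1 and Mt2 matches also spell TGANTCA, the AP-1 site, which 7 of the 43 genes (16.3%) and 5.69% of the tested genes held in the same window. The windows of Mgst1 and Txnrd1 lie inside the gene bounds of GENCODE M21, where longer transcripts start further upstream. 3 of the 5 genes called lower below that had a promoter carried the core (Mgst1, Gsta3 and Sod1, but not Gpx4 or Txn1), as did 6 of the 11 with lower p16 values and 1 of the 3 with higher ones (Txnrd1) at an unadjusted p under 0.05, and 3 of the 27 that did not pass that threshold. A match is a stretch of letters and was not measured as a binding site here.

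The libraries held 1760953 to 3414362 reads on genes (control) and 2884544 to 3202975 (p16). The 95% intervals given below are limma's. They give the uncertainty of the difference between group means, from the spread between samples with variances moderated across genes. The p16 transgene (hsCDKN2A) stood at 0.7, 1.3, 2.5 and 1.5 normalized counts in control replicates 1 to 4. In the p16 samples it stood at 1.6, 10.1, 16 and 7.4, and the library labelled p16 replicate 1, with 2 reads, overlapped the controls (exact two-sided permutation p = 0.0571). The sorted marker EGFP stood at 5330 ± 809 in control and 3555 ± 341 in p16 samples (SD, n = 4 each, exact permutation p = 0.0286). p16 replicate 4 stood apart from the other p16 libraries over all genes. Replicate 3 of both groups has another wording for its library protocol in the labels. Basal keratinocyte markers summed to between 31880.9 and 52881.9 in control samples and between 32055.6 and 36674.6 in p16 samples, and of the 7 only Krt15 was called, lower. Recovered reads of Krt5 (11761 to 12279) and Krt14 (10186 to 12146) were nearly the same in every library, although total reads differed. Their normalized counts therefore follow mainly the size factors, and these sums are a poor measure of marker level. The cause was not tested. Of the cells gated out, the fibroblast markers summed to 11.6 to 27.5 in control and 42.8 to 220.7 in p16 samples. Dcn alone accounted for that difference: it was called higher, and without it, a choice made after its values were seen, the sums were 7.4 to 21.4 and 6.6 to 17.7. Lum was at 0 in every sample. The T cell markers summed to 15.6 to 20.6 in control and 4.5 to 15.6 in p16 samples, and the Langerhans and myeloid markers to 134.5 to 160.5 and 146.3 to 195.2, with Lyz2 at 0 and Ptprc, which encodes CD45, at no more than 1.6. The endothelial markers summed to 2.6 to 5.2 and 5.5 to 8.9, with Cdh5, Emcn and Kdr at 0. Fewer cells of a type and less RNA per cell cannot be told apart in these bulk samples.

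In p16 cells 6 of the 48 tested antioxidant genes fell and none rose. The 6 were the membrane-bound transferase Mgst1, the alpha-class transferase Gsta3, the lipid-peroxide peroxidase Gpx4, the cytosolic superoxide dismutase Sod1, the glutathione-making subunit Gclc and cytosolic thioredoxin Txn1. They are 12.5% of the 48, where 2.61% of all tested genes were called lower (334 genes) and 1.24% higher (159 genes), by limma with a Benjamini-Hochberg adjusted p under 0.05 over all 12782 genes. Among genes with a mean normalized count of at least 100, 5 of 23 antioxidant genes (21.7%) were called lower, where 2.47% of all such genes were. At an unadjusted limma p under 0.05, 13 were lower (27.1%, where 8.93% of all tested genes were) and 3 were higher (6.25%, where 7.02% were), and 32 did not pass that threshold. 2 of those 3, Gstm1 and Gstm2, are mu-class transferases. The genes were chosen with earlier results of these data known, so the shares above are a description and were not tested.

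There was no common shift of the list. 24 of the 48 log2 fold changes were below 0 and 24 above, where 50.4% of all tested genes were below 0, and the median was −0.02 against −0.00 for all tested genes. In 9 genes every p16 sample was below every control sample, where 5.63% of all tested genes were so, and in 1 gene every p16 sample was above, where 4.19% were. The groups of 9.83% of all tested genes did not overlap in one direction or the other. The 50 genes together took between 0.686% and 0.737% of the normalized counts of a control sample and between 0.66% and 0.806% of those of a p16 sample, and these ranges overlap. p16 replicate 4 held the highest p16 value for 23 of the 48 genes and p16 replicate 3 the lowest for 19.

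**Figure D1:**
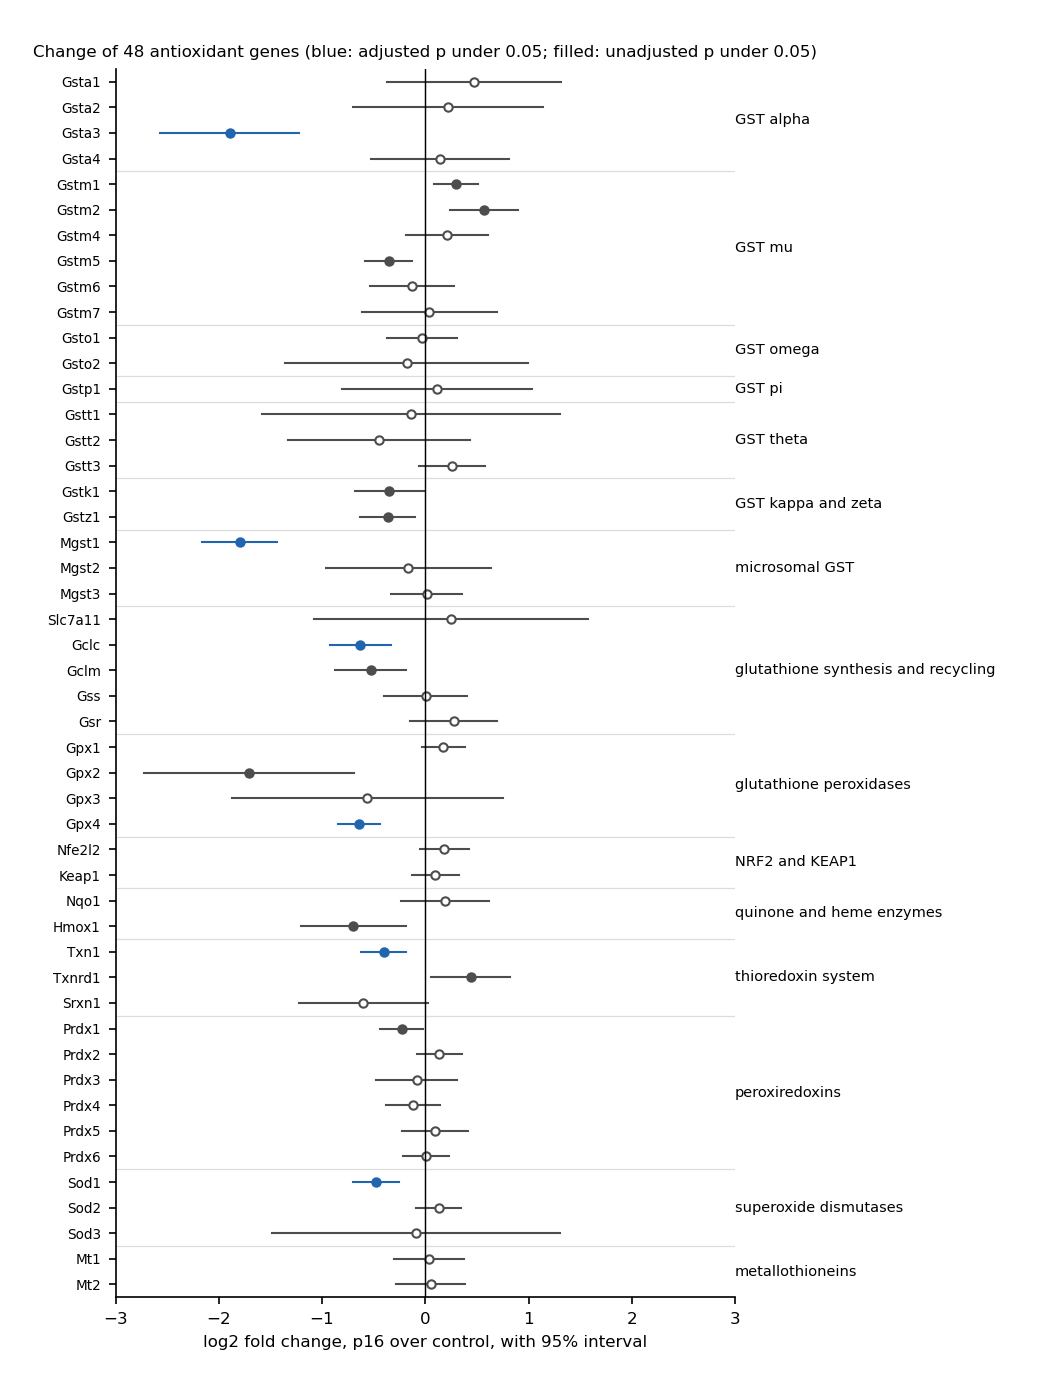
Log2 fold change, p16 over control, on the log2(normalized count + 1) scale for the 48 antioxidant genes tested, by role, with 95% intervals from limma (n = 4 per group). Blue points passed an adjusted p of 0.05 and filled points an unadjusted p of 0.05; all 6 blue points lie below 0, and the other points lie on both sides of it.

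The largest falls were in the transferases, enzymes that join glutathione to electrophiles. Mgst1 (ENSMUSG00000008540, chromosome 6, 138140316 to 138156755, GRCm38) encodes a membrane-bound transferase that also reduces lipid hydroperoxides. Its normalized counts were 476.3, 449.2, 484.4 and 433.9 in control replicates 1 to 4. In the p16 samples they were 119.1, 205.3, 119.7 and 102.8, so that the groups lay far apart, with p16 replicate 2 above the other p16 samples. The means were 461 ± 23.5 and 137 ± 46.4 (SD, n = 4 each), a log2 fold change of −1.80 ± 0.17 (SE) with a limma adjusted p of 3.95e-05. The exact two-sided permutation p was 0.0286, which is the smallest that 4 samples against 4 can give and also holds for Gsta3, Gpx4, Gclc, Sod1 and Txn1 below. Mgst2 and Mgst3, the other microsomal members, did not pass: Mgst2 ranged from 15.3 to 44.3 in control and from 12.3 to 40.8 in p16 samples, with replicate 3 the highest in both groups, and Mgst3 from 87.1 to 131.3 and from 83.5 to 127.1.

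Gsta3 (ENSMUSG00000025934, chromosome 1, 21240589 to 21265661), an alpha-class transferase with activity on steroids and on aldehydes such as those from lipid peroxidation, was the other transferase that fell. Its control values were 14.8, 11.6, 10 and 18.3 and its p16 values 2.4, 3.1, 2.7 and 3.3. Every p16 sample was below every control sample, at a low level throughout, with 9 to 20 reads in a control library and 3 or 4 in a p16 library. The log2 fold change was −1.89 ± 0.31 (SE), with a limma adjusted p of 0.00354. An antisense gene, Gm28836, covers the end of Gsta3, and whether counting used strand is not given in the sources used here. Genes on the other strand also cover the ends of Gsto1, Gsto2, Gclm, Gss, Gpx2, Keap1, Prdx2 and Sod1, and their counts are uncertain to that extent. Its relatives on chromosome 9 did not pass: Gsta1 stood at 2.5 to 10.7 in control and 8.0 to 13.3 in p16 samples, Gsta2 at 3.7 to 6.7 and 3.9 to 16.4, and Gsta4 at 29.5 to 73.5 and 25.8 to 63.8. Of the 40-base words in the last 500 bases of their transcripts, 92.4% in Gsta1 and 59.9% in Gsta2 occur in other genes, each other among them, so reads of these genes may have been split.

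Markers of other keratinocyte states and of skin appendages differed between the groups as well. Of 8 tested rows of differentiated keratinocyte markers, Lor was called higher (mean 91.8 in control and 303 in p16 samples) and Ivl (48.2 and 23.4) and Sbsn (1052 and 536) lower, while the sums of 5983.1 to 8400.3 and 6373.4 to 9806.6 overlapped. 7 of 9 sebaceous gland markers were called lower, including Scd1 and Pparg. Control replicates 1 to 4 had sums of 1617.9, 1264.0, 1660.3 and 1662.3, and p16 replicates 1 to 4 had sums of 518.1, 780.0, 612.7 and 614.9. The p16 sample with the highest sum, replicate 2, was also the one with the most Mgst1. That replicate likewise had the highest p16 sums of melanocyte, T cell, and Langerhans and myeloid markers. Among p16 samples Gsta3 was highest in replicate 4, and both hair-follicle sums were highest in replicate 3. 4 of 7 upper hair-follicle markers were called lower, with sums of 16421.8 to 24777.9 in control and 13286.8 to 16247.2 in p16 samples. 5 of 8 hair-follicle stem cell markers were called lower and 1 higher, with sums of 2556.3 to 3299.7 and 1036.0 to 2369.3. The melanocyte markers summed to 75.9 to 457.0 and 17.2 to 91.4, with 2 of 6 tested called lower. The part of these cell types in the changes of the antioxidant genes was not tested.

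**Figure D2:**
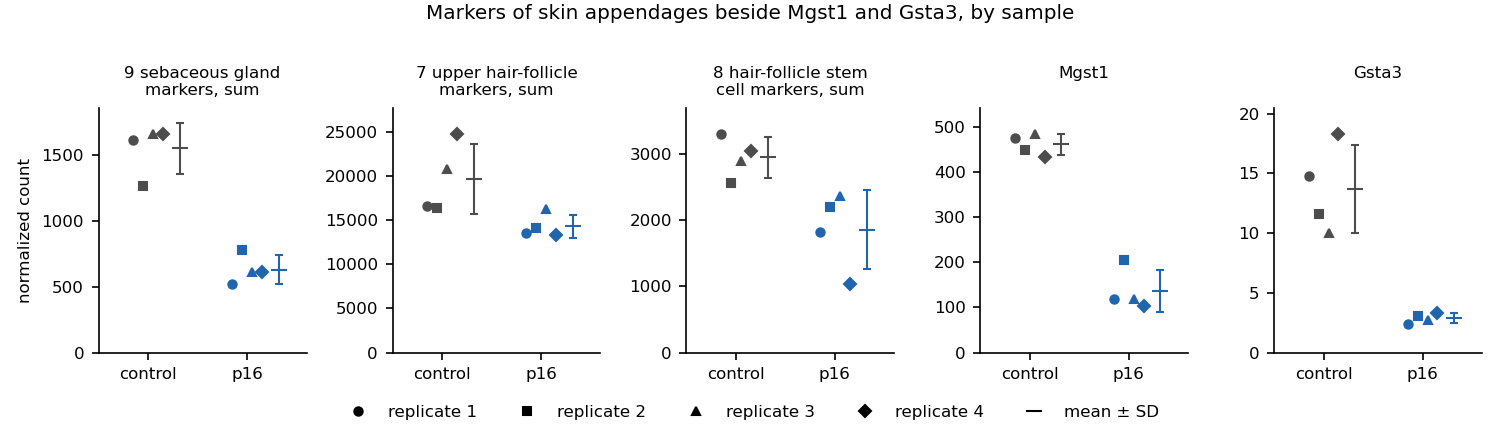
Summed normalized counts of sebaceous gland, upper hair-follicle and hair-follicle stem cell markers beside Mgst1 and Gsta3, by sample (marker shape gives the replicate, bars the mean ± SD, n = 4). In each panel the 4 p16 samples lie below the 4 control samples. The highest p16 sample is replicate 2 for the sebaceous sum (780.0) and Mgst1 (205.3), replicate 3 for both hair-follicle sums and replicate 4 for Gsta3.

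The mu-class transferases, a cluster on chromosome 3 that conjugates epoxides and quinones, held no call and had values on both sides of 0. Gstm1 stood at 1301.2, 1633.7, 1428.2 and 1702.0 in control samples and at 1896.5, 1812.9, 1766.2 and 1961.8 in p16 samples. It was the one gene of the 48 in which every p16 sample was above every control sample, yet its log2 fold change of 0.30 ± 0.10 (SE) had a limma adjusted p of 0.130. Gstm2 stood at 905.8, 1166.6, 1060.7 and 863.2 in control samples and at 1824.6, 1307.0, 1103.9 and 1797.3 in p16 samples. p16 replicates 1 and 4 were well above the controls, and p16 replicate 3 was among them. Its log2 fold change was 0.57 ± 0.15 (SE), and its limma adjusted p of 0.0557 missed the threshold. It passed in 7 of 18 alternative settings. Among these were edgeR with TMM scaling (adjusted p = 0.0484), DESeq2 (adjusted p = 0.00993) and limma without p16 replicate 3 (adjusted p = 0.0152). Without p16 replicate 1 the limma adjusted p rose to 0.188. Gstm5, of the same cluster, was lower at an unadjusted p under 0.05: it stood at 604.6, 533.9, 622.2 and 710.4 against 523.7, 429.4, 514.3 and 461.3, with no overlap, a log2 fold change of −0.35 ± 0.11 (SE) and a limma adjusted p of 0.0891.

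The other mu-class genes had adjusted p-values (limma) from 0.649 to 0.976. Gstm4 ranged from 34.7 to 36.7 in control and from 31.9 to 52.8 in p16 samples, Gstm6 from 41.1 to 56.0 and from 32.0 to 52.8, and Gstm7 from 9.2 to 22.9 and from 11.5 to 20.8. Gstm3 had at most 2 reads in any library. Summed over the class, the counts were 2908.8 to 3429.3 in control and 3484.6 to 4371.2 in p16 samples, which do not overlap and of which Gstm1 and Gstm2 make up most. Other sums did not overlap either, all lower in p16 samples. These were the microsomal transferases (536.3 to 644.8 and 226.1 to 312.2), the kappa and zeta transferases (164.3 to 187.9 and 120.5 to 150.7), glutathione synthesis and recycling (388.1 to 464.4 and 289.4 to 377.8) and the thioredoxin system (681.5 to 850.2 and 550.6 to 675.0). Mgst1 made up most of the microsomal sum in control samples, Gclc and Gclm most of the synthesis and recycling sum, and Txn1 most of the thioredoxin sum. The sums of the remaining roles overlapped between control and p16 samples. Such sums were not tested.

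**Figure D3:**
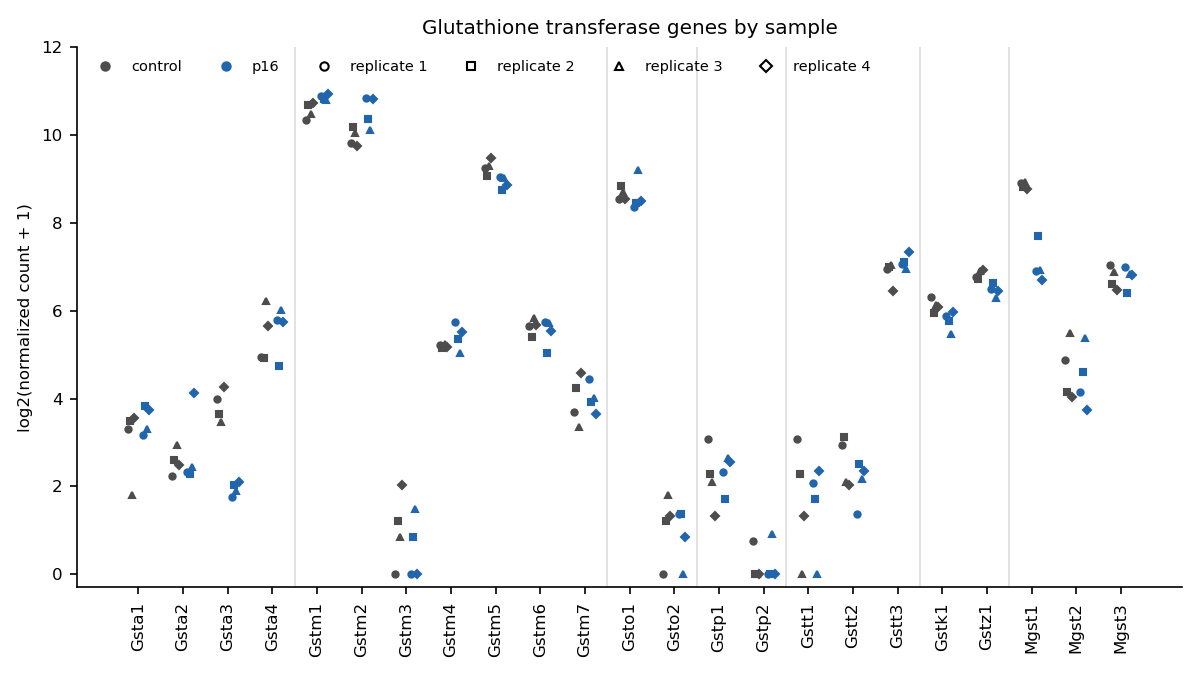
Log2(normalized count + 1) of the 23 glutathione transferase genes in each control (grey) and p16 (blue) sample, grouped by class, with marker shapes for the replicates. Mgst1 and Gsta3 show blue points well below the grey ones, Gstm1 and Gstm2 show blue points mostly above, and most other genes overlap.

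Gstz1, which also isomerizes maleylacetoacetate in tyrosine breakdown, and Gstk1, a mitochondrial and peroxisomal transferase, were lower at an unadjusted p under 0.05 only. Gstz1 stood at 107.6, 104.0, 117.8 and 120.7 in control samples and at 88.8, 97.6, 77.1 and 86.3 in p16 samples, which did not overlap (log2 fold change −0.36 ± 0.12 (SE), limma adjusted p = 0.144). Gstk1 stood at 77.9, 60.3, 69.3 and 67.2 and at 57.6, 53.1, 43.4 and 61.7, and overlapped by 1 p16 sample (−0.35 ± 0.16, limma adjusted p = 0.291). The remaining classes overlapped between groups. Gsto1 (omega class) ranged from 371.3 to 458.2 in control and from 326.2 to 589.6 in p16 samples, where replicate 3 held the high value. Gstt3 (theta) ranged from 85.6 to 129.5 and from 123.2 to 161.2. The protein-coding gene Gm20441 covers the end of Gstt3 on the same strand, so the counts of Gstt3 are uncertain whatever the strand setting. Gstt1, Gstt2, Gstp1, Gstp2 and Gsto2 stood at or below 7.7 in every sample. Gstp2 and Gsto2 held 3 reads or fewer in each library, so no difference was detectable at these counts for these 2. Gstp1 and Gstp2 share 79.2% and 92.6% of their end words with other genes, including each other, so reads of Gstp1 and Gstp2 may have been split. In all, 21 of the 23 transferases were tested, 2 fell, and an unadjusted p under 0.05 was reached by 5 in the lower direction and 2 in the higher.

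Of the 5 genes of glutathione synthesis and recycling, Gclc alone fell. This catalytic subunit of the first step (ENSMUSG00000032350, chromosome 9, 77754535 to 77794485) stood at 134.3, 146.3, 163.7 and 177.2 in control samples and at 91.1, 108.5, 117.9 and 84.7 in p16 samples. The groups did not overlap, and the means were 155 ± 18.9 and 101 ± 15.3 (SD, n = 4 each). The log2 fold change was −0.63 ± 0.14 (SE) and the limma adjusted p 0.0200. The call held in 5 of the 8 fits that left out 1 library. It was lost without control replicate 3 (limma adjusted p = 0.0606), control replicate 4 (0.0614) or p16 replicate 1 (0.0735).

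Its partner Gclm did not pass. Control values were 172.1, 183.5, 195.4 and 212.4 and p16 values 123.9, 181.1, 137.4 and 97.0, so that p16 replicate 2 lay among the controls. The log2 fold change was −0.53 ± 0.16 (SE) with a limma adjusted p of 0.0922, and of 0.0155 without p16 replicate 2. Without p16 replicate 1 the limma adjusted p was 0.228, and Gclm passed in 1 of 18 alternative settings. Gss, which makes the second step, stood at 28.4 to 46.2 in control and 32.8 to 39.5 in p16 samples, with a log2 fold change of 0.00 (95% interval −0.40 to 0.41). Gsr stood at 38.2 to 65.5 and 48.8 to 66.6, a log2 fold change of 0.27 (95% interval −0.15 to 0.69). Slc7a11 was barely detected, with 2 reads or fewer in each control library and up to 7 in a p16 library.

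Among the glutathione peroxidases, Gpx4 fell. It reduces phospholipid hydroperoxides in membranes and is known as the brake on ferroptosis, and it lies at chromosome 10, 80047166 to 80056439 (ENSMUSG00000075706). Control values were 1413.2, 1345.0, 1337.2 and 1521.7 and p16 values 836.3, 901.0, 836.1 and 1035.2, with a wide gap between the groups. The means were 1404 ± 85.4 and 902 ± 93.8 (SD, n = 4 each), the log2 fold change −0.64 ± 0.10 (SE) and the limma adjusted p 0.00149. Of the 40-base words at the end of its transcripts, 91.3% also occur in the copies Gpx4-ps2 and AC122253.3, so its reads could be counted in part elsewhere.

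Gpx1, the cytosolic peroxidase, did not pass. It stood at 1745.5, 1849.3, 2012.0 and 2096.1 in control samples and at 2202.0, 2009.7, 2029.6 and 2471.6 in p16 samples. Those overlap, with a log2 fold change of 0.18 (95% interval −0.04 to 0.39) and a limma adjusted p of 0.423. Gpx2, an inducible epithelial peroxidase and known NRF2 target, was widely spread in control samples (19.3, 14.1, 54.3 and 6.1) and nearly constant in p16 samples (4.8, 4.7, 4.4 and 4.9). Every p16 sample was below every control sample, but control replicate 4 only by a small margin. The log2 fold change was −1.71 ± 0.48 (SE), and the limma adjusted p of 0.0663 fell to 0.0129 without control replicate 4, while DESeq2 gave an adjusted p of 0.00326. With replicate 3 of both groups left out the limma adjusted p rose to 0.258, and Gpx2 passed in 4 of 16 alternative settings. Of its end words 22.3% occur in the copy Gpx2-ps1. Gpx3, the secreted form, stood at 0.0 to 5.9 in control samples and at 0.8 to 1.6 in p16 samples, where no library held more than 2 reads.

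**Figure D4:**
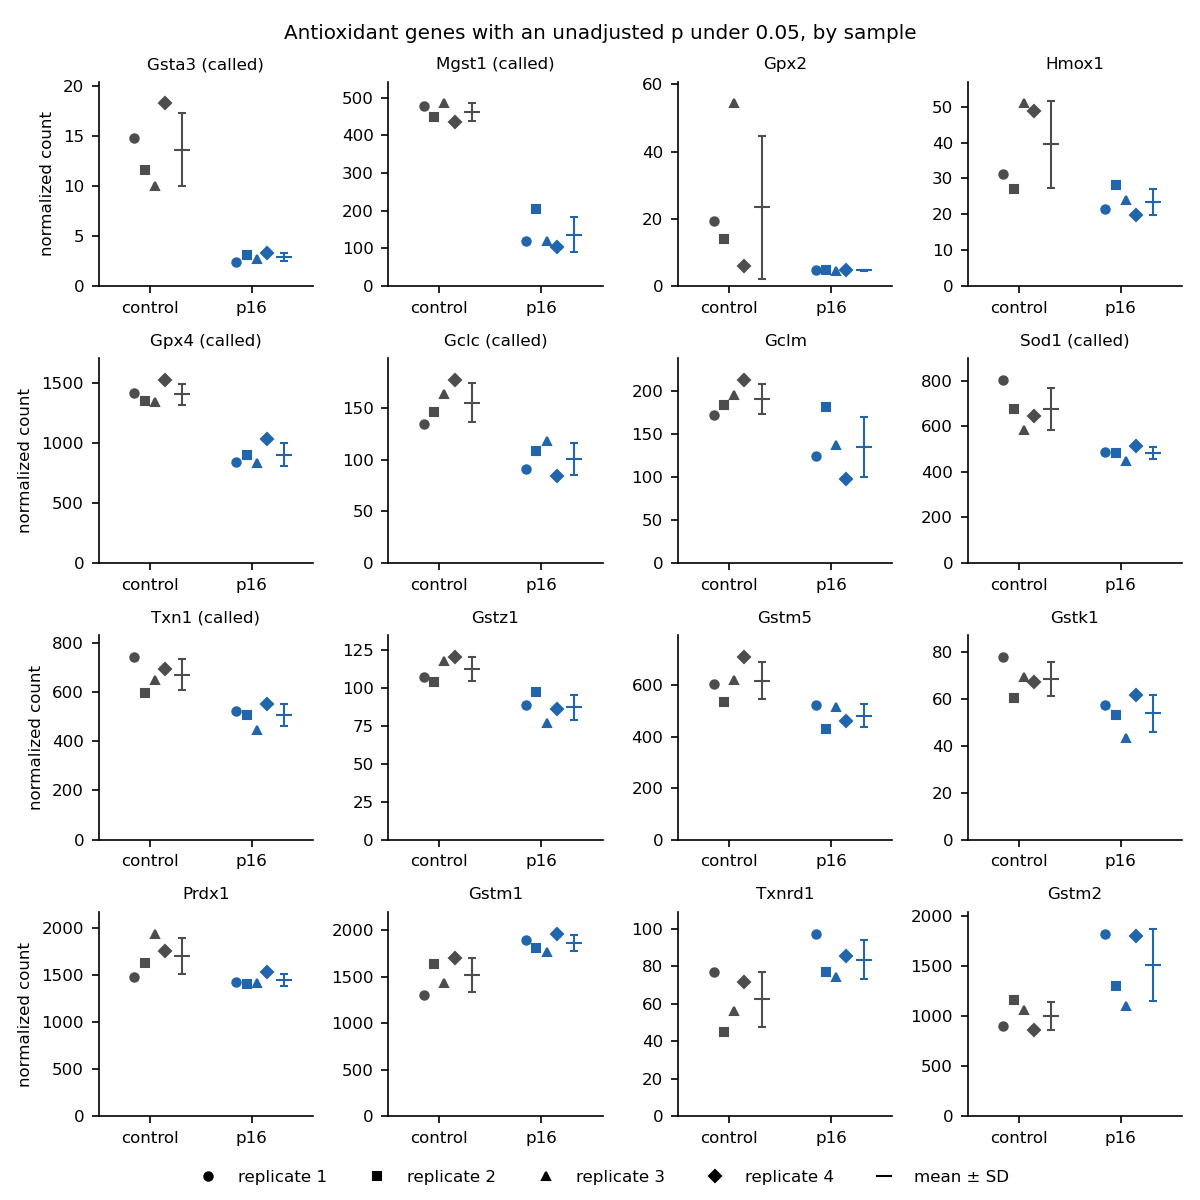
Normalized counts by sample of the 16 antioxidant genes with an unadjusted limma p under 0.05, for control (grey) and p16 (blue) samples, with marker shapes for the replicates and bars for the mean ± SD (n = 4). The groups are separate for the 6 called genes and for Gpx2, Gstm5, Gstz1 and Gstm1, and overlap for Hmox1, Gclm, Gstk1, Prdx1, Txnrd1 and Gstm2.

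NRF2 and its inhibitor did not pass the test. Nfe2l2 stood at 357.6, 413.2, 334.9 and 389.6 in control samples and at 456.5, 466.1, 430.0 and 351.9 in p16 samples. 3 p16 samples were above every control and 1 was within their range, and the log2 fold change was 0.18 (95% interval −0.05 to 0.42, limma adjusted p = 0.461). Keap1 stood at 251.5, 251.5, 296.5 and 305.6 and at 276.6, 271.7, 302.4 and 332.2, a log2 fold change of 0.10 (95% interval −0.13 to 0.33, limma adjusted p = 0.735). NRF2 is controlled mainly through the stability of its protein, which these RNA levels do not measure.

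The classical NRF2 target Nqo1, a quinone reductase, stood at 46.7, 35.9, 41.8 and 51.9 in control samples and at 60.0, 59.3, 35.5 and 49.3 in p16 samples. The groups overlapped, with 2 p16 samples above every control sample and 1 below, and the log2 fold change was 0.19 (95% interval −0.23 to 0.61, limma adjusted p = 0.718). Hmox1, which degrades heme, stood at 31.2, 27.0, 50.9 and 48.9 and at 21.6, 28.1, 23.9 and 19.7. 3 of 4 p16 samples were below every control sample, with a log2 fold change of −0.70 ± 0.24 (SE) and a limma adjusted p of 0.141. Srxn1, the sulfiredoxin that restores overoxidized peroxiredoxins, stood at 30.4 to 56.0 and at 13.6 to 36.2 (log2 fold change −0.60, 95% interval −1.22 to 0.02, limma adjusted p = 0.336). The 3 targets therefore did not pass in either direction.

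In the thioredoxin system, which reduces protein disulfides, the carrier fell and its reductase did not pass. Txn1 (ENSMUSG00000028367, chromosome 4, 57943373 to 57956411) stood at 742.6, 595.5, 648.1 and 695.2 in control samples and at 524.5, 505.2, 444.2 and 553.3 in p16 samples. The groups did not overlap, and the log2 fold change was −0.40 ± 0.10 (SE) with a limma adjusted p of 0.0387. This was the least firm of the 6 calls: it held in 2 of 8 fits with 1 library left out (without control replicate 2 or p16 replicate 4), and the largest of the other 6 adjusted p-values was 0.133, without control replicate 1. Txnrd1, the cytosolic thioredoxin reductase, was higher at an unadjusted p under 0.05 only, at 77.2, 44.9, 56.0 and 71.8 in control samples and 97.5, 77.3, 74.5 and 85.5 in p16 samples. 3 of 4 p16 samples were above every control sample, with a log2 fold change of 0.44 ± 0.18 (SE) and a limma adjusted p of 0.229.

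The peroxiredoxins, thiol enzymes that clear hydrogen peroxide, held no call. Prdx1 stood at 1482.2, 1623.4, 1936.8 and 1758.5 in control samples and at 1428.0, 1398.3, 1418.7 and 1534.2 in p16 samples. 3 of 4 p16 samples were below every control sample, and the log2 fold change of −0.23 ± 0.10 (SE) had a limma adjusted p of 0.256. Prdx6, which also acts on phospholipids, stood at 661.0, 689.2, 632.2 and 655.4 in control samples and at 651.6, 620.7, 590.5 and 804.1 in p16 samples, where replicate 4 lay above all others. Its log2 fold change was 0.01 (95% interval −0.21 to 0.23), and it changed sign without p16 replicate 4 or without control replicate 3. The cytosolic Prdx2 ranged from 419.7 to 495.0 and from 446.9 to 573.9, the mitochondrial Prdx3 from 43.6 to 64.3 and from 41.1 to 66.4, the endoplasmic-reticulum Prdx4 from 98.7 to 121.9 and from 95.3 to 109.9, and Prdx5 from 503.1 to 682.4 and from 484.1 to 774.5. None of the 6 passed (limma adjusted p from 0.256 to 0.988).

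Of the superoxide dismutases, which turn superoxide into hydrogen peroxide, the cytosolic Sod1 fell. Sod1 (ENSMUSG00000022982, chromosome 16, 90220754 to 90226329) stood at 802.7, 676.3, 584.6 and 643.2 in control samples and at 489.3, 482.5, 446.9 and 512.2 in p16 samples, without overlap. The means were 677 ± 92.2 and 483 ± 27.1 (SD, n = 4 each), the log2 fold change −0.48 ± 0.10 (SE) and the limma adjusted p 0.0197. The call was lost in 3 of 8 fits, without control replicate 1 (limma adjusted p = 0.0638), p16 replicate 1 (0.0574) or p16 replicate 3 (0.0617). Of its end words 18.7% occur in the copy Gm8566. The mitochondrial Sod2 stood at 374.6 to 429.9 in control and 402.9 to 522.9 in p16 samples, a log2 fold change of 0.13 (95% interval −0.09 to 0.35). The secreted Sod3 stood at 0.0 to 3.3 over the 8 samples.

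The metallothioneins, cysteine-rich proteins that bind zinc and copper and take up radicals, did not pass. Mt1 stood at 2447.3, 1769.7, 1706.3 and 1636.3 in control samples and at 1891.8, 1583.4, 1699.7 and 2650.0 in p16 samples. Mt2 stood at 2271.5, 2063.6, 2265.1 and 1964.8 and at 2596.2, 1588.8, 1987.9 and 2932.8. In p16 samples replicate 4 was the highest and replicate 2 the lowest for both genes. The log2 fold changes were 0.04 (95% interval −0.30 to 0.38) and 0.05 (95% interval −0.28 to 0.38), and both changed sign when p16 replicate 4 was left out.

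**Figure D5:**
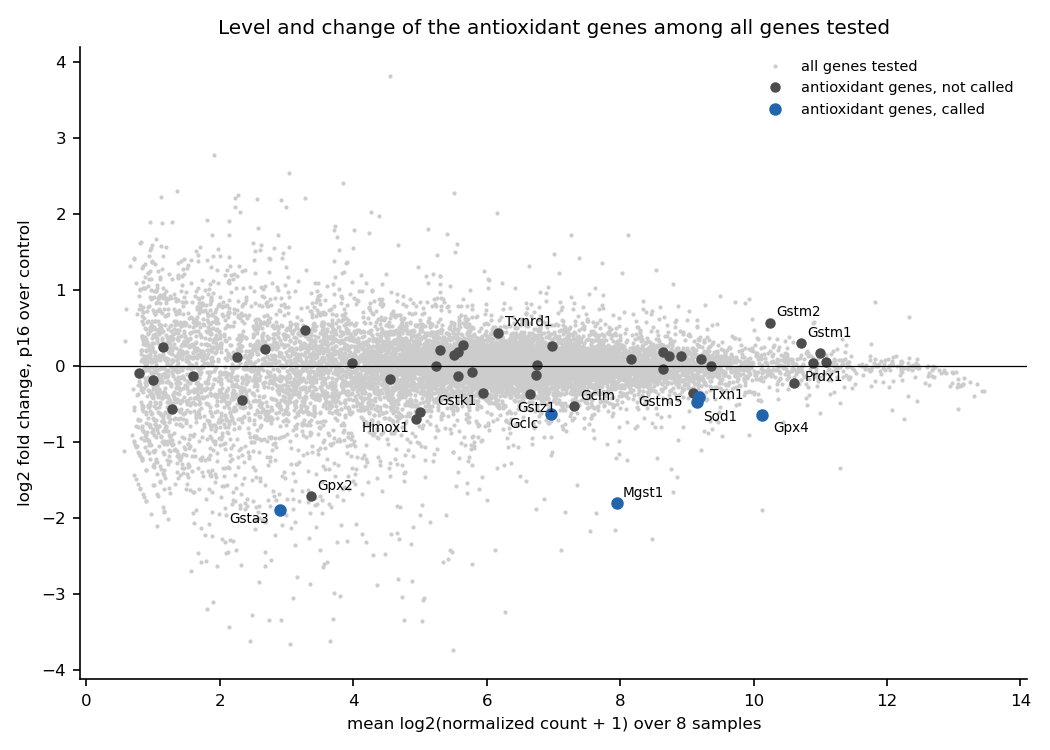
Log2 fold change, p16 over control, against the mean log2(normalized count + 1) over the 8 samples, for all 12782 tested genes (light grey) and the 48 antioxidant genes (dark, or blue when called). Mgst1 and Gsta3 lie near −1.8 at very different levels, and Gpx4, Sod1, Txn1 and Gclc between −0.40 and −0.64; levels are not corrected for transcript length.

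A further 65 genes of the same pathways were compared, of which 60 were tested and Ggt1, Ggt7, Gpx5, Gpx6 and Mt3 were too low. 2 fell and none rose (3.33% lower, against the 2.61% above), while an unadjusted p under 0.05 was reached by 8 in the lower direction (13.3%) and 4 in the higher (6.67%). Osgin1, an NRF2 target linked to growth inhibition, stood at 8.9, 6.4, 11.7 and 18.3 in control samples and at 1.6, 0.8, 2.7 and 4.1 in p16 samples. Its log2 fold change was −1.92 ± 0.42 (SE, limma adjusted p = 0.0201), and the call held in 4 of 8 fits with 1 library left out. No p16 library held more than 5 reads of Osgin1. Msrb3, which repairs oxidized methionine, stood at 198.8, 155.3, 169.5 and 160.4 and at 115.9, 139.8, 102.0 and 69.1. Its log2 fold change was −0.71 ± 0.18 (SE, limma adjusted p = 0.0391), and the call held in 2 of 8 such fits. In the other direction, Aldh3a1 and Sesn2 passed as higher by DESeq2 (adjusted p = 0.0141 and 0.0289). They did not pass by limma (adjusted p = 0.0679 and 0.0604).

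The roles without a call held 6 genes of NADPH supply, 4 of iron and heme handling, 10 partners and regulators of NRF2, 11 tested genes of glutathione use and turnover and 9 other thioredoxin-fold genes. All 6 NADPH genes had log2 fold changes below 0, where 50.4% of all tested genes did, and G6pdx was at −0.003. Of the 11 genes of glutathione use and turnover, 9 were above 0. The NADPH gene with the most counts, the transketolase Tkt, stood at 1209.4 to 1486.6 in control and 890.7 to 1465.2 in p16 samples (limma adjusted p = 0.333). The ferritin heavy chain Fth1 stood at 1475.5 to 1823.6 and 1592.0 to 2723.2 (limma adjusted p = 0.555). The NRF2 regulator Sqstm1 stood at 741.7 to 843.5 and 662.3 to 845.2 (limma adjusted p = 0.652). The cystine carrier's heavy chain Slc3a2 stood at 750.7 to 782.8 in control and 655.2 to 709.7 in p16 samples without overlap (log2 fold change −0.17, limma adjusted p = 0.323). The thioredoxin inhibitor Txnip stood at 882.8 to 1545.2 and 1130.5 to 1639.5 (limma adjusted p = 0.474).

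Across the settings tried, Mgst1 and Gpx4 fell in all of them, and Gsta3 in all in which it was tested. Without p16 replicate 1, the library with 2 transgene reads, 3 genes were called lower, and they were these same 3. With replicate 3 of both groups left out, these 3 again passed and Gstm2 was called higher.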

How the data were processed

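mRNA was measured in 8 samples of sorted GFP+ keratinocytes, grouped by their labels as control or p16; 13 samples of a second profiling were not analysed here. The authors prepared libraries of transcript 3′ ends with an adapted CEL-Seq2 protocol, trimmed reads with Cutadapt and aligned them to GRCm38 with TopHat2; the submitters' processing notes also name HTSeq and DESeq2. The annotation version, the strand setting and the use of molecular identifiers are not given in the sources used here. The deposited signal values are counts per gene that the authors divided by a size factor per sample. Their columns of group means, fold changes, test statistics and p-values were not used. Dividing by the value of 1 read gave whole reads for 100% of values (within 0.05).

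limma 3.58.1 (R 4.3.3, eBayes with trend) was fitted to log2(normalized value + 1) for genes with a mean of at least 1, without a replicate term, and p-values were adjusted by Benjamini-Hochberg. The added 1 makes fold changes of low genes smaller than they are. Recovered reads were tested with edgeR 4.0.16 and DESeq2 1.42.0 as alternatives, and scripts were tested on simulated data. The samples came from 3 independent experiments, which the labels do not assign to samples, so p-values rest on the spread between these pooled samples. The members and lists were chosen with earlier results of these data known. Values in every sample are given for genes with an unadjusted p under 0.05, for Nfe2l2, Keap1, Nqo1 and Hmox1, and for the 8 with the highest mean. Further pathway genes are named when called by limma or DESeq2, or by highest mean in a role without a call.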

Additional observations from a re-analysis of the deposited data

Results flagged for a closer look

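In 9 of the 96 groups of 4 samples (9.38%), 1 sample lay apart from the other 3 by more of the group's range than Dixon's 95% criterion allows; chance alone gives about 1 in 20. For Mgst1 this was p16 replicate 2 at 205.3, and for Gsto1 p16 replicate 3 at 589.6. p16 replicate 4 stood apart for Gsta2 (16.4) and Gsr (66.6), and control replicate 2 for Gsr (65.5). For Mt1 it was control replicate 1 at 2447.3, and for Gstt3 control replicate 4 at 85.6. The others rest on very few reads, namely Slc7a11 at 0.0 in control replicate 2 and Gpx3 at 1.6 in p16 replicate 2. Of these genes Mgst1 alone was called, and its call held without that sample.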

How the results depend on the processing

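The count of genes called lower was 6, and lay between 3 and 6 when 1 library was left out (3 without p16 replicate 1). It was 3 with replicate 3 of both groups left out and 13 at an unadjusted p. The count called higher was 0, and 0 to 1 with 1 library left out. It was 1 (Gstm2) with replicate 3 of both groups left out, total count scaling, edgeR with TMM, with upper quartile scaling or without a filter, and DESeq2, and 3 at an unadjusted p. For the 65 further pathway genes, the 2 called lower became 0 to 3 with 1 library left out (3 without p16 replicate 4), 0 when replicate 3 was dropped from both groups, 1 with a minimum mean of 10, total count scaling, edgeR TMM or upper quartile, and 8 unadjusted. The 0 called higher became 0 to 1 with 1 library left out, 2 by DESeq2 or total count scaling, 1 with edgeR without a filter, and 4 unadjusted. With 1 library left out, log2 fold changes ranged from −0.087 to 0.061 for Prdx6, from −0.12 to 0.17 for Mt1 and from −0.084 to 0.21 for Mt2, so that their sign changed. The cause was not tested.

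Whether the replicate numbers pair the samples is not known. Same-numbered samples had deviations correlated at 0.055, 0.004, 0.046 and 0.083, and other pairs at −0.0997 to 0.058. Not every sample correlated best with its own number, and these small values do not settle the question. With a replicate block, 7 antioxidant genes were called lower, Gpx2 added, and the calls over all genes were 392 lower and 216 higher. Over all genes the calls, 334 lower and 159 higher, became 177 lower and 86 higher without control replicate 1, 192 and 69 without p16 replicate 1, 247 and 99 without p16 replicate 3, and 157 and 66 when replicate 3 was dropped from both groups. Genes with 3 reads or fewer per library are limited by depth.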
